A study of Rattus norvegicus with 7 samples.

Results

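The genes described here are transcription factors of the AP-1 family and of the immediate-early response. They were chosen by name: every probe set whose annotated symbol was Fos, Fosb, Fosl1, Jun, Junb, Jund, Egr1, Atf3, Nr4a1 or Ets1. Of these 10 genes, 9 had a probe set of their own, and Fosb was not analysed here. The 9 genes were read by 20 of the 8740 probe sets tested, and the array named 4736 genes in all. Fosl1 had been chosen for its low level with ethanol and Jund for its spread between arrays, and Ets1 was known to be low with ethanol when the list was made. The values of these 3 genes are therefore given as a description, with no test.

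The samples were alveolar type 2 cells, which make and secrete lung surfactant, from male Sprague Dawley rats. The 3 ethanol arrays, numbered 2, 3 and 4, came from rats on a liquid Lieber-DeCarli diet in which ethanol supplied 36% of calories for 6 weeks, and the 4 control arrays, numbered 1 to 4, from rats given an isocaloric diet without ethanol for the same time. Cells were isolated by immunoadsorption and their RNA was extracted with Trizol, labelled with biotin and hybridised to an Affymetrix expression array, with 1 array for each animal. Each value is a log2 expression value of a probe set, so a difference of 1 is a doubling.

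AP-1 is a DNA-binding dimer of basic leucine zipper proteins, formed by a FOS protein with a JUN protein or by 2 JUN proteins. Its sites were searched for here with the loose pattern TGANTCA, in which N is any base. The genes Fos, Jun, Junb, Egr1, Atf3 and Nr4a1 are classical immediate-early genes: growth factors, stress and injury switch them on within minutes through MAP kinases, without new protein synthesis, and their transcripts decay fast. Fosl1 encodes FRA-1, a FOS relative that accumulates more slowly and is itself a target of AP-1. Jund is expressed more steadily in many tissues. Ets1 belongs to the ETS family, whose proteins bind DNA beside AP-1 at many shared target genes.

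The stretches of 250 bases before the start of Egr1, Jund and Fosl1 are shown as examples from the genes described below. They are RefSeq sequences of the GRCr8 assembly, 5′ to 3′. Egr1 lies at chr18:26736828-26737077 (plus strand), Jund at chr16:18769772-18770021 (minus strand) and Fosl1 at chr1:212183635-212183884 (plus strand). Capitals mark the CArG box, the site of serum response factor, in Egr1, and TGACGTCA, the cyclic AMP response element that ATF and CREB proteins bind, in Jund.
Egr1: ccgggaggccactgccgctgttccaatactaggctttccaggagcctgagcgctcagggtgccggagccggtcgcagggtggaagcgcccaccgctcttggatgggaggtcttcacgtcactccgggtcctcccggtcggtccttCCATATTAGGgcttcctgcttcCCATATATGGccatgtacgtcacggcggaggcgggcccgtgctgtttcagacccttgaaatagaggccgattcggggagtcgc
Jund: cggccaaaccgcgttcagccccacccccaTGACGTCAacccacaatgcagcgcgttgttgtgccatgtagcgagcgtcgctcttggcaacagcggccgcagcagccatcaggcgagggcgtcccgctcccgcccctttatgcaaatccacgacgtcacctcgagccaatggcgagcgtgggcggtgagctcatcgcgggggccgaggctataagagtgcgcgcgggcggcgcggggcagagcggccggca
Fosl1: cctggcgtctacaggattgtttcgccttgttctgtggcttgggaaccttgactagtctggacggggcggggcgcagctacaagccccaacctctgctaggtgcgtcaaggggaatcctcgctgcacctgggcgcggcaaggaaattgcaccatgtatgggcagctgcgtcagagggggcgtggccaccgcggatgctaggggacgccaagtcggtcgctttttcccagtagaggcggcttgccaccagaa

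Egr1 held 2 CArG boxes, which started 105 and 83 bases before the gene's start. Jund held 1 TGACGTCA, which started 221 bases before it. Both strands were searched for TGANTCA, TGACGTCA and the CArG box, and none of the 3 was found in this stretch of Fosl1, Junb, Nr4a1 or Fosb. TGANTCA occurred in 6.34% of 33469 such stretches in the table, TGACGTCA in 1.59% and the CArG box in 1.5%. TGACGTCA does not contain TGANTCA, and a match of letters is not evidence of binding. Of the 10 genes, 6 were matched in the table by symbol, and Fos, Jun, Atf3 and Ets1 were not.

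Over all probe sets, control 2 stood apart on the first principal component, at 30.5 where the other arrays lay between -18.9 and 5.83, and this component took 44.2% of the variance. The spread of values on control 2 was also the smallest, with an SD of 1.29 against 1.34 to 1.46 elsewhere. Of the 15 type 2 cell markers listed, 9 were measured, and Sftpc, the surfactant protein C gene, was at 12.41 to 12.78 with ethanol and 12.76 to 12.84 in controls. The type 2 marker list as a whole was lowest in ethanol 2, at a mean of 8.48, against 9.08 and 9.28 in ethanol 3 and 4 and 8.78 to 9.15 in the controls. The 3′ minus 5′ signal of actin, a measure of RNA integrity, was 0.645 to 1.10 with ethanol and 0.607 to 1.01 in controls. In whole-cell RNA of this kind, fewer cells of a type and less RNA per cell cannot be told apart.

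The 9 genes stood in 3 different ways. Fosl1 and Ets1 lay below every control in all 3 ethanol arrays, Jund varied more than nearly any other probe set, and Fos, Jun, Junb, Egr1, Atf3 and Nr4a1 were high in ethanol 3 and 4 but not in ethanol 2. Among the 16 probe sets of these last 6 genes, 0 passed limma at a Benjamini-Hochberg adjusted p under 0.05, where 0.149% of all probe sets did. Their adjusted p lay between 0.967 and 0.971. At unadjusted p under 0.05 there were 4 of the 16, both probe sets of Nr4a1 among them, against 4.58% of all probe sets. That count depended on the fit: it was 0 in limma without variance moderation, 10 with the replicate number as a block and 11 with array weights. Over all 8740 probe sets the counts in these fits were 367, 710 and 1035, against 400 in the main fit. Of the 16 it was 14 without ethanol 2, 1 without ethanol 3, 0 without ethanol 4 and 1 to 5 without a control. Over all probe sets these counts were 355, 261, 373 and 231 to 789. All 16 had a mean difference above 0, but the genes were gathered with these arrays known, and nothing is read from that count. Over the 20 probe sets, Fosl1, Jund and Ets1 among them, the median log2 difference, ethanol minus control, was 0.46. It was -0.0051 over all 8740. Nothing is read from this contrast either, for the same reason, and several of the 20 read the same gene.

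**Figure D1:**
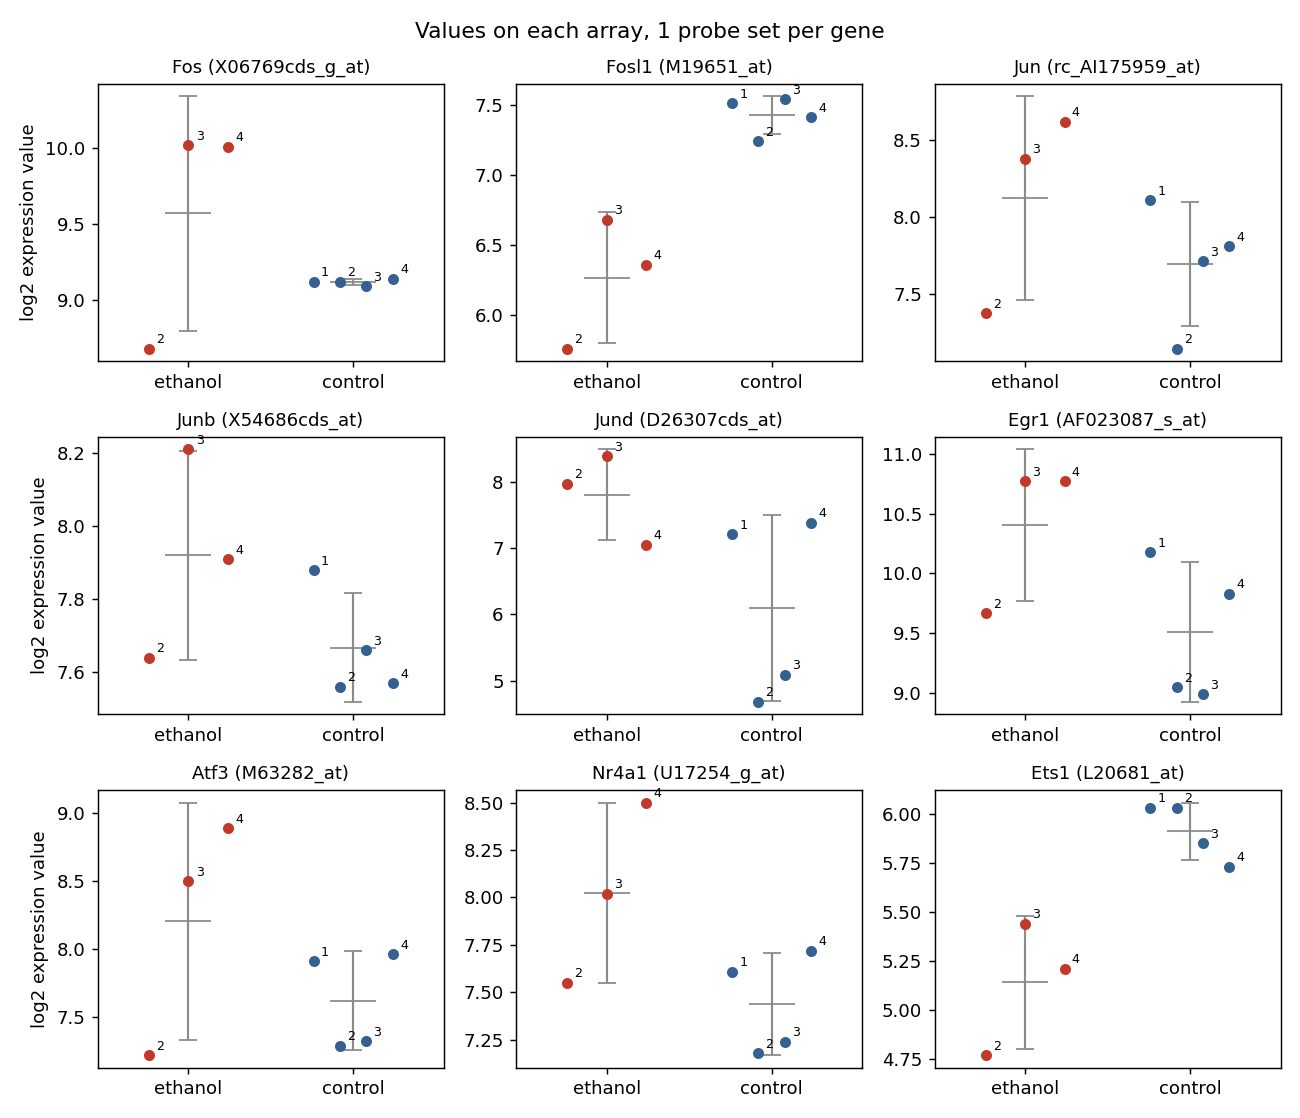
Log2 expression values (vertical axis) of 9 transcription factor genes in 3 ethanol arrays (red, left) and 4 control arrays (blue, right), 1 probe set per gene, with array numbers beside the points; bars show the group mean and SD. Fosl1 and Ets1 do not overlap between the groups, the 4 controls of Fos lie within 9.09 to 9.14, and ethanol 2 is the lowest ethanol array in every panel but that of Jund.

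Fos, the founding member of the FOS subunits, was read by 3 probe sets. Its brightest, X06769cds_g_at, was at 8.68, 10.02 and 10.01 in ethanol 2, 3 and 4, and at 9.12, 9.12, 9.09 and 9.14 in controls 1 to 4. The controls were nearly level, while ethanol 3 and 4 lay above all of them and ethanol 2 below. The group means were 9.57 ± 0.77 with ethanol and 9.12 ± 0.023 in controls (SD, n = 3 and 4), a log2 difference of 0.45 (95% confidence interval -0.20 to 1.10). The other Fos probe sets had the same order. X06769cds_at was at 6.46, 8.42 and 8.61 with ethanol and 6.91 to 7.51 in controls, a difference of 0.65 (SE 0.45), and X03347cds_g_at at 7.14, 8.87 and 8.86 with ethanol and 7.72 to 8.10 in controls, a difference of 0.37 (SE 0.37). Both probe sets named X06769 are built on 1 sequence and are not separate evidence. With ethanol 2 left out, X06769cds_g_at and X06769cds_at passed in limma, at differences of 0.896 and 1.34 and adjusted p of 0.0358 and 0.0485. The difference of X06769cds_g_at was 0.229 and 0.231 without ethanol 3 and 4, that of X06769cds_at 0.358 and 0.264, and that of X03347cds_g_at 0.0783 and 0.0857. With any array other than ethanol 2 left out, no probe set of the 16 passed.

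Jun, the founding JUN subunit and a partner of FOS, was read by 4 probe sets. The brightest, rc_AI175959_at, was at 7.37, 8.38 and 8.62 in ethanol 2, 3 and 4, and at 8.11, 7.14, 7.71 and 7.81 in controls 1 to 4. Ethanol 3 and 4 were again above the controls, and control 2 was the lowest array of all. Its log2 difference was 0.43 (95% confidence interval -0.26 to 1.12), at 0.807 without ethanol 2, 0.183 without ethanol 4 and 0.246 without control 2. The other 3 Jun probe sets had differences of 0.26 to 0.56 (SE 0.18 to 0.43). Junb, a JUN subunit that often counters Jun, was at 7.64, 8.21 and 7.91 with ethanol in X54686cds_at, and at 7.88, 7.56, 7.66 and 7.57 in controls 1 to 4. Here ethanol 2 lay within the control range and ethanol 3 and 4 above it, and the difference was 0.25 (95% confidence interval -0.099 to 0.61), at 0.393 without ethanol 2 and 0.109 without ethanol 3. In rc_AA891041_at Junb ran from 7.09 to 7.86 with ethanol and from 6.98 to 7.63 in controls, a difference of 0.26 (SE 0.24).

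Egr1, a zinc finger factor that growth signals switch on through serum response factor, was read by 4 probe sets. AF023087_s_at was at 9.67, 10.77 and 10.77 in ethanol 2, 3 and 4, and at 10.18, 9.05, 8.99 and 9.83 in controls 1 to 4. Controls 1 and 4 stood above controls 2 and 3 and also above ethanol 2. The means were 10.41 ± 0.63 with ethanol and 9.51 ± 0.59 in controls, which differed by 0.89 on the log2 scale (95% confidence interval 0.10 to 1.68; limma adjusted p = 0.967). M18416_at was more widely spread, at 7.22, 8.91 and 9.00 with ethanol and 8.49, 6.50, 6.95 and 8.01 in controls, a 5.68-fold range over the 7 arrays and a difference of 0.89 (SE 0.54) that ran from 0.557 without control 2 to 1.47 without ethanol 2. The probe set rc_AI176662_s_at had a difference of 0.82 (SE 0.44), at 0.389 without ethanol 3 and 1.30 without ethanol 2. Only U75398_s_at disagreed: it was at 5.30, 6.02 and 5.17 with ethanol and 5.23 to 5.61 in controls, a difference of 0.11 (SE 0.20) that turned to -0.149 without ethanol 3.

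Atf3, a basic leucine zipper factor induced by many kinds of stress, was at 7.22, 8.50 and 8.89 in ethanol 2, 3 and 4, and at 7.91, 7.29, 7.32 and 7.96 in controls 1 to 4. Ethanol 2 was the lowest and ethanol 4 the highest of the 7 arrays, 3.17-fold apart. The log2 difference was 0.58 (95% confidence interval -0.22 to 1.39), at 1.08 without ethanol 2 and 0.243 without ethanol 4. Nr4a1, which encodes the orphan nuclear receptor NUR77, was at 7.55, 8.02 and 8.50 in U17254_g_at with ethanol and 7.61, 7.18, 7.24 and 7.72 in controls 1 to 4, a difference of 0.59 (95% confidence interval 0.078 to 1.10, adjusted p = 0.967 in limma). Its second probe set, U17254_at, was at 7.05, 7.51 and 7.86 with ethanol and 6.38 to 7.15 in controls, a difference of 0.66 (SE 0.22). Both probe sets are built on 1 sequence and are not separate evidence. In both, ethanol 2 lay within the control range and ethanol 3 and 4 above it. The difference of U17254_g_at ran from 0.349 without ethanol 4 to 0.822 without ethanol 2.

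**Figure D2:**
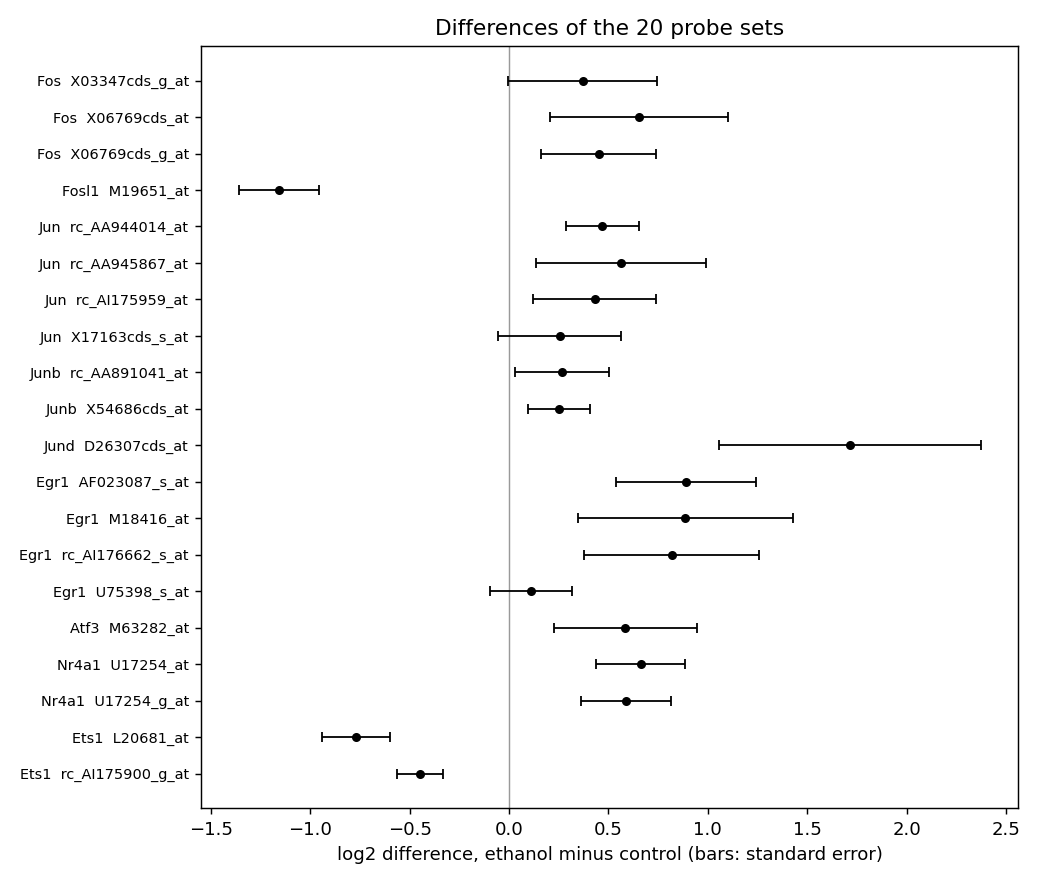
Log2 difference, ethanol minus control (horizontal axis), of the 20 probe sets of the 9 genes, from the fit across all probe sets; points are differences of 3 ethanol and 4 control arrays and bars are standard errors. Fosl1 at -1.16 and Jund at 1.72 lie farthest out, on opposite sides, and the bar of Jund is the longest.

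Fosl1 had the lowest difference of the 20 probe sets. It was at 5.76, 6.68 and 6.36 in ethanol 2, 3 and 4, and at 7.51, 7.24, 7.54 and 7.41 in controls 1 to 4. The groups did not overlap: the highest ethanol array was 0.55 below the lowest control. The means were 6.27 ± 0.47 with ethanol and 7.42 ± 0.14 in controls, a log2 difference of -1.16 (SE 0.20), or 2.23-fold lower with ethanol. The difference ran from -1.36 to -0.902 with each array left out, and it was least without ethanol 2. Fosl2, the closest relative of Fosl1 on the array, did not share these values. It was at 6.03 to 6.10 with ethanol and 6.01 to 6.30 in controls, with a log2 difference at -0.11 (95% confidence interval -0.37 to 0.15; limma adjusted p = 0.967), and its second probe set stood at 0.054.

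Ets1 was at 4.77, 5.44 and 5.21 in L20681_at in ethanol 2, 3 and 4, and at 6.03, 6.03, 5.85 and 5.73 in controls 1 to 4. The log2 difference was -0.77 (SE 0.17), and it ran from -0.92 to -0.58 with each array left out. The dimmer rc_AI175900_g_at was at 4.09, 4.12 and 4.05 with ethanol and 4.64, 4.37, 4.55 and 4.57 in controls, a difference of -0.45 (SE 0.11). Neither probe set overlapped between the groups. Together with Fosl1 these were 3 of 20 probe sets with all ethanol arrays below all controls, against 2.71% of all probe sets, and 0 of 20 lay wholly above, against 2.53%. Since both genes were listed for this, nothing is read from the count. Of the other ETS family genes listed, 2 of 20 were measured, Ehf at -0.089 and Fev at 0.079, and neither passed (adjusted p = 0.971 for both in limma).

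Lymphocytes express Ets1, and the mean of the T and natural killer cell markers was also below every control on the 3 ethanol arrays. Without Ets1, that list had 8 measured genes, with a mean of 4.23 to 4.31 with ethanol and 4.32 to 4.52 in controls. Of these 8, 6 had a negative difference and 2 a positive one, and the median was -0.069. In 2 of the 8, where 2.71% of all probe sets did so, all ethanol arrays lay below every control: Cd3d, part of the T cell receptor complex, at 4.54 to 4.80 against 4.82 to 5.01, and Prf1, the perforin gene, at 3.32 to 3.83 against 3.85 to 4.19. The other 6 overlapped between the groups, with differences of -0.25 in Klrd1, a natural killer cell receptor gene, to 0.021 in Cd2, and -0.044 in Cd8a, a T cell co-receptor gene. None of the 8 passed in limma, with 1 lower at unadjusted p under 0.05, against 2.45% of all probe sets. The B and plasma cell list had 2 measured genes, Cd79b and Cd37, and its mean overlapped between the groups, at 4.75 to 5.09 with ethanol and 4.90 to 5.10 in controls. The part of lymphocytes in the Ets1 values was not tested. The list of fibroblast and smooth muscle markers had 9 of 10 genes at a negative difference, 0 of them past the threshold in limma and 5 lower at unadjusted p under 0.05, against 2.45% of all probe sets. Its mean was 5.17 to 5.31 with ethanol and 5.22 to 5.74 in controls, with an overlap through control 4, and its part in the Fosl1 and Ets1 values was not tested either.

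Jund had 1 probe set, D26307cds_at, and was at 7.97, 8.39 and 7.05 in ethanol 2, 3 and 4, and at 7.21, 4.68, 5.09 and 7.38 in controls 1 to 4. Controls 2 and 3 were far below the other 5 arrays, and ethanol 4 lay below controls 1 and 4, so the groups overlapped. The 7 arrays covered a 13.1-fold range. Their SD of 1.41 ranked 3 from the top among the 8740 probe sets, whose median SD was 0.196. The means were 7.81 ± 0.69 with ethanol and 6.09 ± 1.40 in controls, a log2 difference of 1.72 (SE 0.66) that ran from 1.25 to 2.14 with each array left out. Jund did not follow the low values of ethanol 2 that the other JUN and FOS genes had, and it was the only 1 of the 9 genes, by its brightest probe set, in which ethanol 2 was not the lowest ethanol array.

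The order of the arrays was largely shared by the immediate-early genes. Ethanol 2 was the lowest ethanol array in 17 of the 20 probe sets, and in 30.5% of all 8740. Ethanol 3 and 4 both exceeded every control in 14 of the 20, and in 6.09% of all. Among the controls, 1 and 4 both exceeded 2 and 3 in 14 of the 20, and in 18.2% of all. Several of the 20 read the same gene. By the brightest probe set of each gene, these orders held in 8, 6 and 5 of the 9 genes, respectively. These orders were noticed in the values and are a description, with no test. Of the 9 type 2 markers, ethanol 2 was the lowest ethanol array in 9 and the lowest of all 7 arrays in 7. Muc1, an epithelial mucin on that list, was at 7.50, 8.65 and 9.11 in ethanol 2, 3 and 4, and at 8.02 to 8.58 in controls. In Muc1, Sftpb and Ctsh, ethanol 3 and 4 both exceeded every control. They did not in Sftpc, Sftpa1, Sftpd, Nkx2-1, Scd and Cebpa. Sftpd was at 9.36, 9.76 and 10.44 with ethanol and 9.90 to 10.54 in controls. The part of type 2 cell content in the values of the immediate-early genes was not tested.

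**Figure D3:**
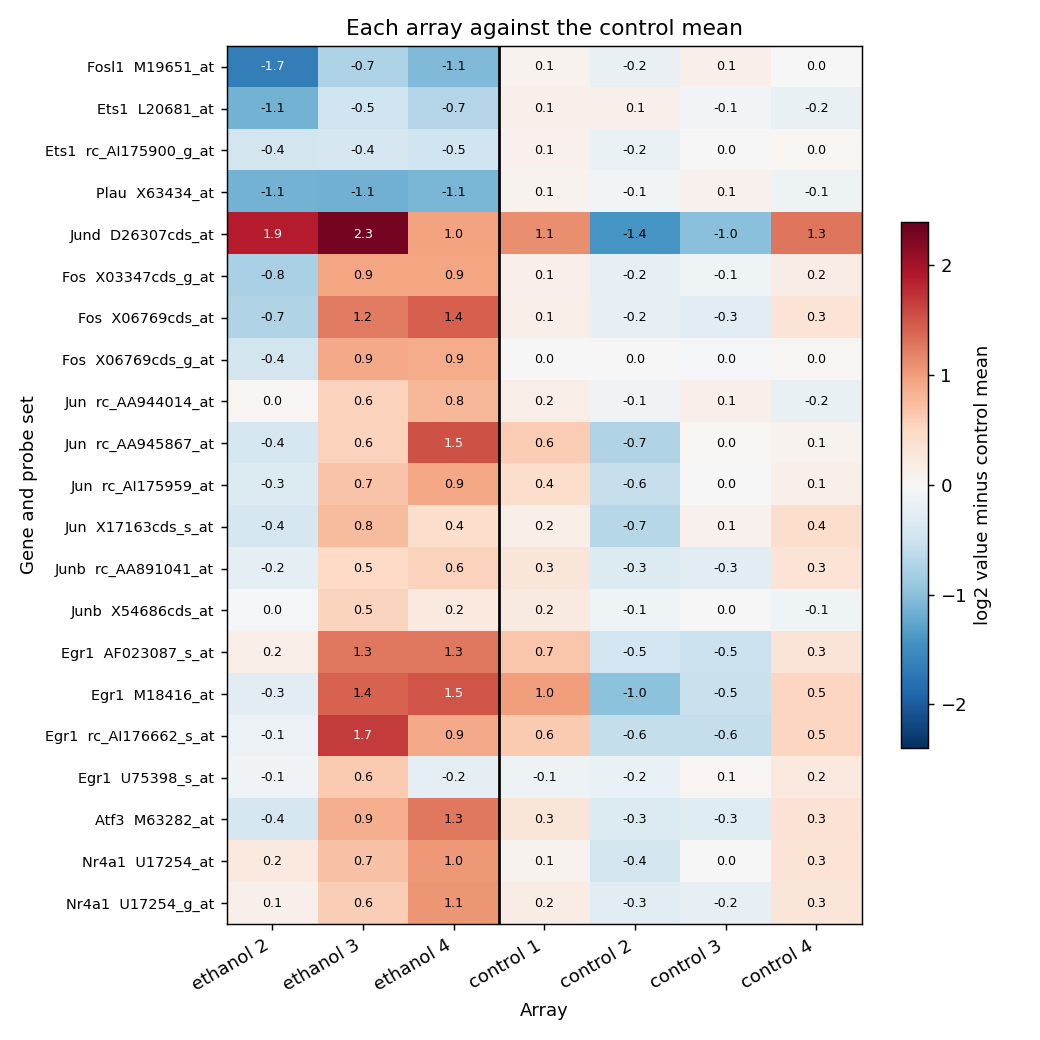
Log2 value of each array minus the mean of the 4 controls, by probe set (rows) and array (columns, ethanol left of the black line), for the 9 genes and Plau; red is above and blue below the control mean. Fosl1, Ets1 and Plau are below it in all 3 ethanol arrays, while Fos and Atf3 are below it in ethanol 2 and above it in ethanol 3 and 4.

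Genes whose profile over the 7 arrays lay nearest were found by the root mean square difference between profiles centred on their own mean. This measure was taken for the 16 of the 20 probe sets whose SD over the arrays was in the top 10% of named probe sets, and all profiles share the same 7 arrays. The nearest to Fosl1 were Ets1 in L20681_at, at 0.253, Plau, at 0.262, and LOC102547700, at 0.283, against an SD of Fosl1 itself of 0.682. The other Ets1 probe set, rc_AI175900_g_at, was at 0.431 from Fosl1. Fosl1, Ets1 and Plau were listed with their low values with ethanol known, so nothing is read from their nearness. Ets1 in L20681_at was itself nearer to other genes than to Fosl1: Gsk3b, at 0.141, Ipo7, at 0.185, and Acsl3, at 0.188. Plau encodes urokinase, a protease long known as a joint target of AP-1 and ETS factors. It was at 5.44, 5.42 and 5.47 in ethanol 2, 3 and 4, and at 6.66, 6.50, 6.67 and 6.45 in controls 1 to 4. Plau passed in limma at an adjusted p of 0.0032, its log2 difference being -1.13 (SE 0.11), and this was known when it was listed here. The adjusted p was 0.0691 without variance moderation, which ends the call, and 0.00028 to 0.0325 under the other alternatives.

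For Atf3 the nearest genes were H2ax, a histone variant gene, at 0.148, Zfp36, which encodes an mRNA decay factor, at 0.199, and Cx3cl1, the fractalkine gene, at 0.202. H2ax was at 6.22, 7.33 and 7.50 with ethanol and 6.28 to 6.84 in controls. The brightest Fos probe set was nearest to Tns3, a tensin gene, at 0.139, with H2ax at 0.191 and Irf1, an interferon regulatory factor gene, at 0.193. Egr1 in AF023087_s_at was nearest to Rhob, a small GTPase gene, at 0.235, and to Atf3, at 0.277. Nr4a1 in U17254_g_at was nearest to 1 of the 5 probe sets of Tmpo, at 0.0823, and to Cebpd, a C/EBP factor gene, at 0.134. Jund had no close match: the nearest was Dab2, an endocytic adaptor gene, at 0.799 against its own SD of 1.41.

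The other immediate-early genes were, as a list, again highest in ethanol 3 and 4, without any single gene passing. Of 45 genes listed, 29 were measured, and 0 passed in either direction in limma, with 1 higher and 1 lower at unadjusted p under 0.05, against 2.13% and 2.45% of all probe sets. Their median log2 difference was 0.12, against -0.014 over the 4736 genes. The list's mean was 5.88 in ethanol 2, 6.28 in ethanol 3 and 6.28 in ethanol 4, against 6.16, 5.80, 6.10 and 6.18 in controls 1 to 4, so ethanol 2 and control 2 were the lowest. Zfp36 had the lowest p on the higher side, at 8.61, 9.44 and 8.95 with ethanol and 8.02 to 8.81 in controls, a log2 difference of 0.58 (95% confidence interval 0.076 to 1.09), with a second probe set at 0.42. Klf4, a Kruppel-like factor gene, was at 0.60 and Egr2, a relative of Egr1, at 0.53. Ier5, on the lower side, was at -0.34, and Myc, the growth factor-responsive oncogene, at -0.33 with a second probe set at -0.048. The adjusted p of Zfp36, Klf4, Egr2, Ier5 and Myc was 0.967 in limma.

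Other genes of the leucine zipper class were nearer to the middle. Their list held partners of AP-1 and also other members of the class, such as Dbp, Hlf and Tef. Of 30 genes listed, 17 were measured and 0 passed in limma, with 0 at unadjusted p under 0.05 and a median log2 difference of 0.082. Cebpd was at 0.46 in its brightest probe set and at 0.23 and -0.12 in the others. Ddit3, the stress factor CHOP, was at 0.40, Mafk, a small MAF partner of NRF2, at -0.39, and Jdp2, a repressor that dimerises with JUN, at 0.15. The adjusted p of these 4 was 0.967 in the named probe set of each. A list drawn up around MAP kinase signalling also held other kinases, such as Rps6kb1. Of its 42 genes 25 were measured, with 0 passing in limma, 0 at unadjusted p under 0.05 and a median of 0.074. Rps6kb1, a ribosomal protein S6 kinase gene, was at 0.22 with a second probe set at -0.020, Mapk12 at 0.20 with a second at -0.14, and Map2k6, a kinase of p38, at -0.35. The list for cofactors of EGR and NR4A proteins also held Sp1, Wt1 and Jup. Of its 11 genes 8 were measured, with 0 passing, 0 at unadjusted p under 0.05 and a median of 0.00029. Nab1, a corepressor of EGR factors, was at 0.0022.

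Among known targets of AP-1, Plau was the gene that passed, and it did not pass without variance moderation (adjusted p = 0.0691). Of 40 genes listed, 35 were measured. On the lower side 1 passed in limma, Plau, which was itself the 1 probe set of all 8740 (0.0114%) that passed lower. Plau was listed with this known, so nothing is read from the count. On the higher side 0 passed, where 0.137% of all probe sets did. At unadjusted p under 0.05 there was 1 on each side, against 2.13% of all probe sets higher and 2.45% lower. The 1 on the lower side was Plau. The median log2 difference of the 35 genes was -0.072. Plaur, the receptor of urokinase, was at 7.73, 8.45 and 8.55 with ethanol and 8.34 to 9.04 in controls, a difference of -0.48 (95% confidence interval -0.98 to 0.027). Il6, an inflammatory cytokine gene, was at 0.40 in M26745cds_s_at and 0.79 in M26744_at. Gja1, the connexin 43 gene, was at -0.57, Spp1, the osteopontin gene, at -0.55 and Vim, the vimentin gene, at 0.76 (SE 0.50). The adjusted p of Plaur, Il6, Gja1, Spp1 and Vim was 0.967 in limma.

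Early inflammatory genes, which share upstream signals with AP-1, followed another order of arrays in their mean, while the single genes were split. The mean of their 14 measured genes of 16 listed was 6.59 in ethanol 2, 5.98 in ethanol 3 and 6.64 in ethanol 4, against 6.13, 5.73, 5.90 and 7.31 in controls 1 to 4. Control 4 was thus the highest and ethanol 3 the lowest ethanol array, whereas ethanol 3 had the highest mean of the 9 genes described here, at 8.27. By single genes, ethanol 2 was the lowest ethanol array in 6 of the 14: Il6, Nfkbia, Nfkb1, Icam1, Ier3 and Sod2. Il1b, the interleukin 1 beta gene, was at 6.86, 4.99 and 6.69 with ethanol, and at 5.38, 5.07, 5.18 and 8.08 in controls 1 to 4. Nfkbia, the NF-kB inhibitor gene, was instead at 8.78, 9.79 and 9.58 with ethanol and 8.32 to 9.31 in controls, and its second probe set was the nearest to Egr1 in M18416_at, at 0.345.

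**Figure D4:**
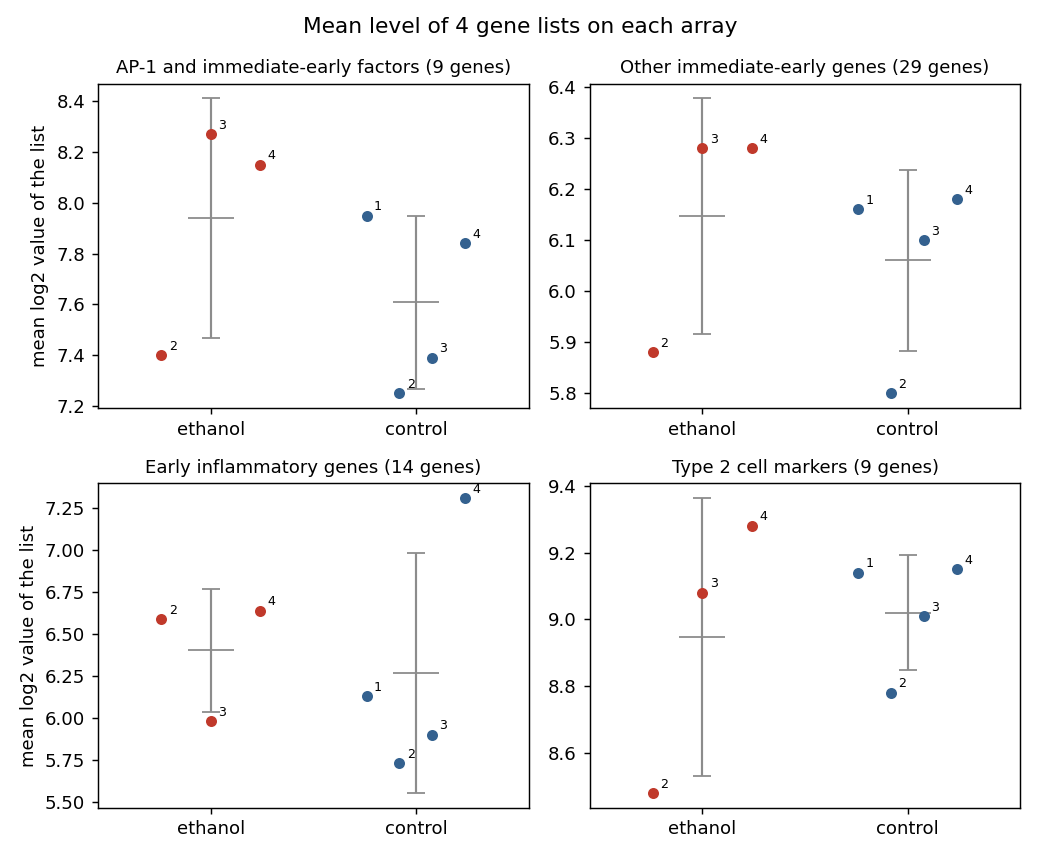
Mean log2 value of the measured genes of 4 lists (vertical axis) in 3 ethanol arrays (red, left) and 4 control arrays (blue, right), with array numbers beside the points; bars show the group mean and SD over arrays. Ethanol 2 is the lowest ethanol array in every panel but that of the early inflammatory genes, in which control 4 is highest at 7.31.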

How the data were processed

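The authors deposited log2 expression values of 8799 probe sets on 7 arrays; that the scale is log2 was read from the values, which ran from 1.65 to 12.84. Array means lay between 4.759 and 4.761. Background correction, summarisation and normalisation are not given in the sources used here, and no detection calls were used. Without the 59 array controls, 8740 probe sets were tested. The platform's annotation gave 1 symbol to 7006 of them, several to 308 and none to 1426. Of the 7006, 6985 matched the RefSeq gene table of GRCr8 by Entrez identifier, with 0 symbols changed. Probe sets with several symbols named no gene. The probe set with the highest mean over all arrays stood for a gene in the lists, and other probe sets are given where they disagree.

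The fit was limma 3.58.1 in R 4.3.3 (diet as the term, empirical Bayes variances, two-sided, Benjamini-Hochberg over 8740 probe sets, threshold 0.05), and it was tested on simulated data. Promoters were searched in the 250 bases before each start. Python 3.11.15 with matplotlib 3.10.9 drew the figures. The members and gene lists were chosen with earlier results of these data known. Named genes were the first 2 measured and the 3 of lowest p of each list, list genes of high spread, and the 3 genes nearest in profile to each member of high spread, and those printed were picked from them. The protein comparison that was planned was not run. Per the series' design text each array is 1 animal, so p-values measure variation between rats. Beside the number within its group, each title opens with a running number, which is lower for every control than for every ethanol array, and diet cannot be told apart from anything that follows this order. Precision is limited by the 7 arrays: the median SE of a log2 difference was 0.148.

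Replicate numbers 2, 3 and 4 occur in both groups. Deviations from the group means correlated at 0.425, 0.0666 and 0.432 between arrays of the same number. Between arrays of different numbers the correlations ran from -0.531 to 0.352. The labels do not say that the numbers pair animals, so the main fit had no block and the block was an alternative. Whether arrays of the same number share a factor was not tested. Alternatives were quantile normalization, median centring, filters at a mean of 4 and of 6, a trended and robust prior, array weights, the replicate block, no variance moderation, each array left out, and averaging the probe sets of each gene.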

Additional observations from a re-analysis of the deposited data

How the results depend on the processing

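Probe sets passing over the whole array numbered 13, and 2 with the filter at a mean of 6 (1371 tested), 0 without variance moderation (367 at unadjusted p under 0.05), 23 with the replicate block, and 13 to 16 with each array left out. Of the 16 probe sets of Fos, Jun, Junb, Egr1, Atf3 and Nr4a1, 0 passed, and 0 to 2 with each array left out, the 2 being those of Fos without ethanol 2 (differences of 0.896 and 1.34). The replicate block passed 0 of the 16. Among the other genes of the pathway lists 1 passed, Plau, and 0 without variance moderation, with 1 at unadjusted p under 0.05. Of 243 values of these 16 under alternatives, 240 kept their direction and, where tested, their side of the threshold, 2 came to pass, and 1 turned sign: Egr1 in U75398_s_at, 0.11 with all arrays, ran from -0.149 to 0.275 with each array left out. The 59 values of Fosl1, Jund and Ets1, which carry no test here, all moved by less than the spread between arrays. Fosl1 ran from -1.22 to -0.997 and Jund from 1.72 to 2.14 under the alternatives other than leaving arrays out. The causes were not tested. Signal over background could not be judged, since no detection calls were used.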
